A study of Mus musculus with 6 samples.

Results

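The deepest sites of a reduced representation bisulfite sequencing (RRBS) data set of mouse GS cells were described here. The members were chosen by read coverage alone: a CpG site was a member if over 1000 reads covered it in 1 or more of the 6 samples. Of 2268080 sites in the table, 435 met this rule. All 435 were among the 681804 commonly covered sites, which had 10 reads or more in each of the 6 samples. GS cells are germline stem cells, which are spermatogonial stem cells kept in culture. All samples came from GS cells of the genotype DBA/Tg14(act-EGFP-OsbY01), labelled spermatogonia. Space GS cells were frozen for 6 months on the International Space Station and Ground GS cells for 6 months on Earth, with 3 samples each. The cells of both groups were thawed and passaged before they were analyzed. The labels do not say whether the samples of a group were separate cultures, so a p-value measures only the spread between these samples.

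Ribosomal DNA (rDNA) is a tandem array of units, each of which holds the genes of the 18S, 5.8S and 28S ribosomal RNAs between spacers. The mouse genome carries the units on several chromosomes, and only part of the units is transcribed. Active units are unmethylated at the promoter and silent units are methylated, so that a level over all units is an average over many copies. Minor satellite is another tandem repeat. It lies at the mouse centromere, and many of its units hold the CENP-B box, the site bound by the centromere protein CENP-B. A read from a copy that the reference assembly lacks can be placed only on a copy that the assembly holds. The reads of the separate copies could not be told apart here.

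The 435 sites fell into 12 loci, each of which is a group of sites with 1 chromosome and 1 closest gene name. The Esp38 locus on chromosome 17 held 338 sites and 77.3% of the reads over members. The next in size were Filip1l on chromosome 16 with 19 sites, Sfi1 and Gm11670 on chromosome 11 with 14 sites each, and Vmn1r261 on chromosome 6 with 13 sites. Gm29235 on chromosome 2 held 8 sites, Cdk8 on chromosome 5 and Gm20546 on chromosome 17 held 7 each, and Gm37350 on chromosome 3 held 6. Gm13380 on chromosome 2 held 4 sites, Taco1os on chromosome 11 held 3, and Gm21860 on chromosome Y held 2. Esp38 encodes an exocrine gland secreted peptide and Vmn1r261 a vomeronasal receptor, but both names only say which transcription start site was closest. The sites lay 101821 to 107493 bp from the start of Esp38 and 56879 to 57004 bp from that of Vmn1r261. Only the Sfi1 sites (3 to 134 bp) and the Taco1os sites (490 to 506 bp) were within 1000 bp of a start. Thus 3.91% of members were near a start, against 57.3% of the other commonly covered sites. In all, 6 gene names, with 41 sites, were of the Gm type given to predicted genes.

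The coordinates of the table are those of build mm39. No mm39 sequence was used here, so each run of member sites was placed on GRCm38.p6 by the spacing of its CpG sites. All table sites within 1000 bp of a run were slid along the GRCm38 chromosome of the same number. The 13 runs (the Gm29235 locus has 2) were matched with 12 to 588 sites. In each of them, all sites fell on CG at exactly 1 position. For the Esp38 run, 588 of 588 sites fell on CG, and the next best position held 82. For the short Gm21860 run it was 12 of 12 against 11. Sequences below are RefSeq GRCm38.p6, plus strand, with the member CpG sites in capitals.

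The Esp38 run (mm39 chr17:40153917-40159589) matched an rDNA stretch. In GRCm38, GENCODE M21 places the noncoding genes Gm26917 and Gm42418 and the rRNA gene CT010467.1 there, and RefSeq places Rn18s-rs5, which is 18S rRNA related sequence. The stretch from the start of Gm26917 to the end of Gm42418 is 5776 bp long and is numbered from base 1 in what follows. Rn18s-rs5 takes bases 3342 to 5190. The stretch held 590 CG in the reference, 582 of which were sites of the table and 338 of which were members. A pair of 150-bp windows with at least 8 members are shown because their mean levels were the lowest (5.89%, bases 1878 to 2027) and the highest (13.2%, bases 4770 to 4919). Their positions are chr17:39844890-39845039 and chr17:39847782-39847931.
lowest rDNA window: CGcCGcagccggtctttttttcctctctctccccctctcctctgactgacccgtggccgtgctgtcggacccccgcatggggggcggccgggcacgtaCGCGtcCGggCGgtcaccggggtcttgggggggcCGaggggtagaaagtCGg
highest rDNA window: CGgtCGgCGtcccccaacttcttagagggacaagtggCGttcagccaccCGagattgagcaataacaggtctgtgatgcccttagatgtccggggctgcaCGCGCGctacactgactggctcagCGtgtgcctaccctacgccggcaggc

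The Gm29235 runs are shown because they were built of a satellite unit. Both held the CENP-B box, searched on both strands as TTCG, NNNN, A, NN and CGGG joined in this order, where N is any base. The box was found 2 times in run 1 and once in run 2, on the minus strand in each case, and read attcgttggaaacggga. It overlapped 5 of the 8 members. Of 32851 RefSeq promoters of 300 bp, 22 (0.067%) held this motif. Run 1 lies at chr2:98662545-98662706 and run 2 at chr2:98666252-98666414 of GRCm38, with 20 bp shown on both sides. Run 1 is in an intron of the gene model Gm10801.
Gm29235 run 1: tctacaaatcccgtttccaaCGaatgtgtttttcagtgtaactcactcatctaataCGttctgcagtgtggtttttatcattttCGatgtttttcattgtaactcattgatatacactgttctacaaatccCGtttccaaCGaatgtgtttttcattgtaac
Gm29235 run 2: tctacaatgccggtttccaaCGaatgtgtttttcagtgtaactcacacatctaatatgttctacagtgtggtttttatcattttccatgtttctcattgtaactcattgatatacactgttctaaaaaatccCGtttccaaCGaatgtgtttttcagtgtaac

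Among the remaining loci, Vmn1r261 (chr6:3201412-3201578) and Filip1l (chr16:57391268-57391522) are shown because they aligned to other repeat copies. Gm20546 (chr17:36231426-36231491) and Gm21860 (chrY:90731059-90731124) are shown as the loci with the lowest and the highest level. Cdk8 (chr5:146260998-146261167) is shown because its samples did not overlap between the groups.
Vmn1r261: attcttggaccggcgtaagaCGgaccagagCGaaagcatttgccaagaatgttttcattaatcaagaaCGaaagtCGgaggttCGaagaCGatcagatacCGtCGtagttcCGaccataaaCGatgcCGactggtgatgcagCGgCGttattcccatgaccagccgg
Filip1l: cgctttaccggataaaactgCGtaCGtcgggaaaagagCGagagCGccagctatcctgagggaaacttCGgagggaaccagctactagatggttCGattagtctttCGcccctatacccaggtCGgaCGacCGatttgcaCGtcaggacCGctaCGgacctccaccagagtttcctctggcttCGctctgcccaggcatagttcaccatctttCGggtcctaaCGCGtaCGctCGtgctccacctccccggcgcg
Gm20546: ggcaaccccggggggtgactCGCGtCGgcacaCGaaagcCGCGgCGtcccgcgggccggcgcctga
Gm21860: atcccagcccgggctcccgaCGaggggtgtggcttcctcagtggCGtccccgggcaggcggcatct
Cdk8: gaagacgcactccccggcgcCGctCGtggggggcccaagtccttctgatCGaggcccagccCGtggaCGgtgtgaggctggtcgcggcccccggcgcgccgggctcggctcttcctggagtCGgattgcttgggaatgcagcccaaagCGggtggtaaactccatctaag

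The number of copies in the reference differed among these loci. Each run with 50 bp on both sides was aligned to GRCm38 with BLAST. The Gm29235 windows gave 957 and 934 alignments on the chromosomes, of which 306 and 152 covered at least 80% of the window, the window itself included. Most of those, 263 and 116, were on chromosome Y. Only 7 of the 306 and 6 of the 152 were at least 90% identical to the window. The Gm21860 window gave 16 alignments over at least 80% of its length, 13 on chromosome Y and 2 on chromosome X. Of the 16, 10 were at least 90% identical. Filip1l gave 8 and Vmn1r261 gave 6, of which 6 and 2 were at least 90% identical. The best other copies of these 2 loci were 97.8% and 96.5% identical. Gm37350 gave 5 and Cdk8 gave 3, with best other copies at 87.6% and 75.9%. The Esp38, Gm13380, Gm11670 and Taco1os windows gave only their own full-length alignment besides shorter ones. Sfi1 and Gm20546 aligned to no other place on the chromosomes. Alignments to sequences of the assembly outside the named chromosomes were left out, and the copies that an assembly lacks could not be counted here. For those 2 loci a repeat was thus not shown.

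Several loci met again at 1 place. A short stretch of GRCm38 chromosome 9 aligned to bases 4326 to 5190 of the rDNA stretch, in its 18S part. The identity was 76.7% over an alignment of 909 bp, gaps included. The Vmn1r261 window aligned there as well (77.5%). On the side of the 18S part away from the start of the unit lay alignments of Filip1l (73.2%), Gm13380 (77.2%) and Gm37350 (70.7%), within 3258076 to 3259413. Of the 27 alignments of the Gm13380 window, 21 had an alignment of the Filip1l window within 1000 bp. In the rDNA unit, the 28S gene follows the 18S gene after a spacer; its sequence was not compared here.

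By the annotation of GRCm38, 346 members were in exons, 42 in introns and 47 between genes. The exonic members were 336 of the 338 in the rDNA stretch and 10 of the 14 at Sfi1. The Sfi1 run overlapped an exon of Sfi1, which encodes a spindle assembly protein, with 6 sites, an exon of the antisense gene Gm12735 with 4 sites, and an intron of Drg1 with all 14. The Filip1l sites were in introns of Filip1l and Cmss1. The sites of Cdk8, which encodes a kinase of the Mediator complex, were in an intron of it. Those named for Taco1os and Gm13380 were in introns of Taco1 and Arhgap21. RRBS cuts DNA at CCGG. Only 1 of the 435 members (0.23%) was itself in CCGG, compared with 85 of the 523 other table sites in the matched windows (16.3%).

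Coverage chose the members and was not tested. Summed over sites, which counts a read once at each CpG site it covers, the samples held 28535973 to 33743845 reads, and members took 3.98% to 4.30% of them. The median member had 2139 to 2600 reads in a sample, while the median commonly covered site had 27 to 32. The lowest coverage of a member in any sample was 740 and the highest 62796, and 366 members exceeded 1000 reads in all 6 samples. The sites just inside the threshold had at most 1039 (Filip1l, Gm21860) and 1041 reads (Filip1l), and those just outside had 923, 843 (both Esp38) and 838 (Sfi1). The 95% exact binomial interval of a member's level in a sample had a median half-width of 1.2 percentage points. These intervals cover counting error only, since amplified reads are not independent molecules.

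The rDNA stretch took 3.20%, 3.32% and 3.06% of the reads of Space 1, 2 and 3 and 3.13%, 3.27% and 3.10% of those of Ground 1, 2 and 3. The groups overlapped. Along the stretch, mean coverage of members ran from 878 to 7273 reads and changed in steps, with groups of neighbouring sites at nearly the same coverage. The widest gap between members, from base 3756 to base 4552, was inside the 18S gene.

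**Figure D1:**
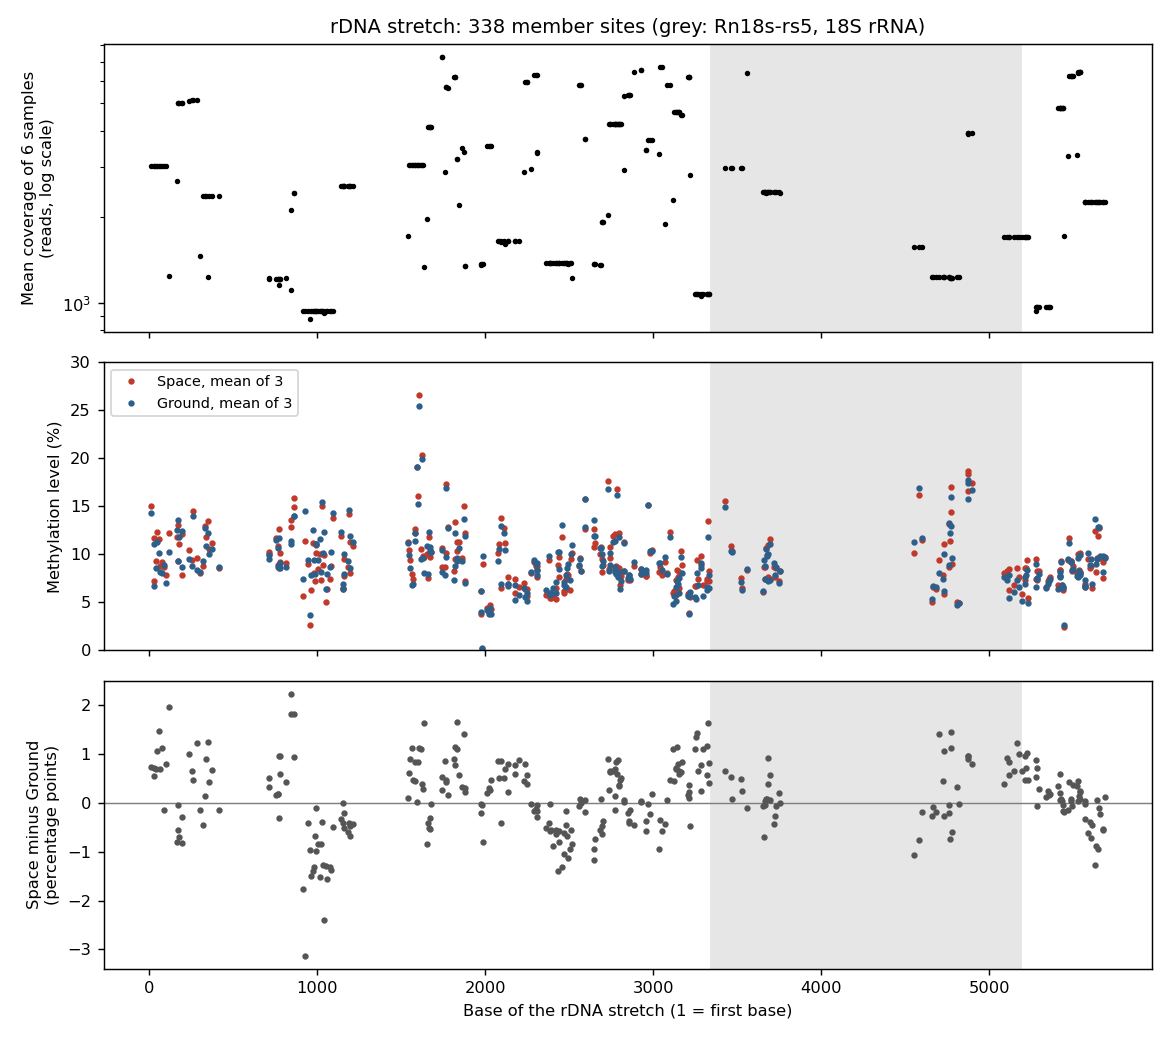
Mean coverage of the 6 samples (top, reads, log scale), mean methylation level of 3 Space (red) and 3 Ground (blue) samples (middle, %) and Space minus Ground (bottom, percentage points) for the 338 member sites by base of the rDNA stretch. Grey marks Rn18s-rs5. Most levels lie between 5% and 15%, and differences of 1 sign follow each other in groups of neighbouring sites.

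The methylation level was low at most members. Of the 435 sites, 400 had a mean level of 5% to 20%, 23 were under 5% and 12 were at 20% or higher. Among the other commonly covered sites, 3.73% lay between 5% and 20%. The median level was 8.76% for members and 2.08% for the others, while the mean was lower for members. Among the others 11.7% of sites were at 95% or higher, and among members 0%. The mean over members was 10.7%, 10.1% and 10.1% in Space 1, 2 and 3 and 10.7%, 9.81% and 9.74% in Ground 1, 2 and 3. The mean over the others was 20.3%, 20.02% and 19.9% in Space and 20.3%, 19.9% and 19.7% in Ground. The difference of -9.84 percentage points had the same sign in 6 of 6 samples (exact sign-flip permutation test, two-sided, p = 0.03125, the smallest that 6 samples allow). Against other sites more than 1000 bp from a start, it was -33.4 points. Both sets hold the same sites in every sample, so the sign-flip p covers the spread between samples and not the choice of sites.

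The rDNA stretch had a mean level of 9.65%, 9.10% and 9.12% in Space 1, 2 and 3. It was 9.81%, 8.88% and 8.82% in Ground 1, 2 and 3. Replicate 1 was the highest in both groups, and the groups overlapped. The same 2 samples also had the highest mean over the other sites of the table; the part of this in the rDNA values was not tested. The means were 9.29% ± 0.311 in Space and 9.17% ± 0.554 in Ground (SD, n = 3), which differed by 0.11 points (exact permutation test, two-sided, p = 0.6, where 0.1 is the smallest possible). In the quasi-binomial locus test, on summed reads, the difference was 0.19 points. It was 0.00042 points without Space 1, 0.042 without Ground 2, 0.017 without Ground 3, 0.32 without Space 2 and 0.51 without Ground 1 (unadjusted p = 0.0019), and the locus was called in none of these fits.

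Within the stretch, the part before Rn18s-rs5, which holds the transcribed spacer at the start of the unit, had 235 members at 9.41% ± 0.377 in Space and 9.31% ± 0.559 in Ground. The 50 members in Rn18s-rs5 were at 9.76% ± 0.221 and 9.50% ± 0.542. The 53 members after it were at 8.29% ± 0.267 and 8.23% ± 0.665. The 3 parts were thus within 2 percentage points of each other, and in each of them the SD of the samples exceeded the difference between the groups in at least 1 group.

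Single sites varied far more than these parts. The highest, at 40155511 of mm39 chromosome 17, was at 28.3%, 25.7% and 25.8% in Space and 24.8%, 25.7% and 25.8% in Ground. The lowest, at 40155885, was at 0.193%, 0.361% and 0% in Space and 0%, 0.440% and 0.248% in Ground. This was the only member in CCGG, and it lies in the window shown above for its lowest mean level. In bins of 500 bp, the mean over Space samples ran from 7.51% (bases 2001 to 2500) to 11.1% (bases 4501 to 5000).

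The sign of Space minus Ground was not the same along the stretch. It was above 0 at 194 of 338 sites. In bases 1001 to 1500 it was above 0 at 0 of 21 sites, with means of 9.35% ± 0.633 in Space and 10.2% ± 0.492 in Ground. In bases 3001 to 3500 it was above 0 at 31 of 36 sites, with 8.15% ± 0.266 and 7.63% ± 0.490. Neighbouring sites share reads and are not independent, and these bins were singled out after their values were seen.

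A fragment of the 18S gene was found at 2 places. The Vmn1r261 window on chromosome 6 aligned to bases 4281 to 4507 of the rDNA stretch over 227 bp with 8 substitutions, in which the base of the stretch is given first and positions are counted from base 1 of the stretch. T4414C and A4423G gave chromosome 6 a pair of CpG sites that the stretch lacks. G4451A and C4472A removed a pair that the stretch has. At 11 CpG sites that both places share, both had over 500 reads in every sample. Median coverage of them on chromosome 6 was 1308, 1324 and 1294 reads in Space and 1184, 1265 and 1119 in Ground. On chromosome 17 it was 726, 638 and 654 in Space and 686, 705 and 629 in Ground, under the threshold in all 6 samples. At these places the member locus was therefore the copy on chromosome 6.

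At the 11 shared sites, the mean level on chromosome 6 was 14.7%, 13.2% and 13.5% in Space and 13.4%, 12.8% and 12.02% in Ground. On chromosome 17 it was 13.9%, 11.9% and 12.1% in Space and 13.3%, 12.5% and 11.9% in Ground. Chromosome 6 was higher in all 6 samples, by 0.69 ± 0.614 points (SD, n = 6; exact sign-flip permutation test, two-sided, p = 0.03125). It was higher by 0.855, 1.34 and 1.46 points in Space and by 0.0942, 0.225 and 0.162 points in Ground, without overlap. The difference between the groups in this quantity was 1.06 points (p = 0.1 in an exact two-sided permutation test, which cannot go lower with 3 against 3). Space minus Ground was 1.10 points on chromosome 6 (p = 0.2, same exact test) and 0.0486 points on chromosome 17 (p = 0.9). This comparison was chosen after the values were seen. Which reads a base difference moves from the one place to the other was not tested.

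**Figure D2:**
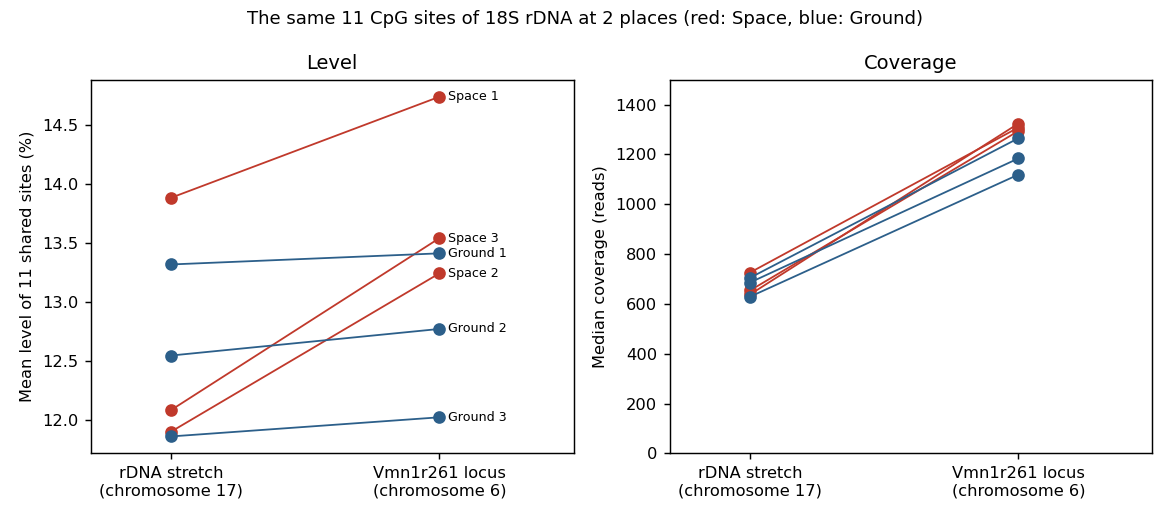
Mean methylation level (left, %) and median coverage (right, reads) of the 11 CpG sites shared by the rDNA stretch on chromosome 17 and the Vmn1r261 locus on chromosome 6. Each line is 1 sample (red, Space; blue, Ground). All 6 lines rise to chromosome 6 in both panels, and the Ground lines are the flatter ones on the left.

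The satellite sites differed widely from each other in level. Across the 8 Gm29235 members the mean levels ran from 10.3% to 64.7%. The deepest site of the table, at 98496738 of mm39 chromosome 2, had 51080 to 62796 reads. Its level was 64.6%, 64.9% and 64.5% in Space and 64.8%, 65.2% and 64.5% in Ground. The 6 values lay within 1 percentage point, and the groups overlapped. The 95% exact binomial interval was 64.2% to 65.0% in Space 1 and 64.8% to 65.5% in Ground 2. This site is in a CENP-B box, as is its neighbour at 98496729, which was at 44.6%, 43.9% and 46.4% in Space and 44.0%, 46.7% and 45.3% in Ground. In run 1, the pair of sites in the box at 98493021 and 98493030 had levels between 41.8% and 50.4% in the samples, and the site in the other box, at 98492910, between 55.6% and 58.1%. The sites at 98492946 and 98492974, outside the box, were at 9.07% to 11.3% and 11.4% to 13.6%. The site at 98496617 was outside a full match of the box, but the sequence around it differed from the searched motif at only 1 base. It was at 59.99% to 62.6%, so levels outside a full match were not all low. The locus mean was 42.9% ± 0.484 in Space and 43.0% ± 0.364 in Ground.

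**Figure D3:**
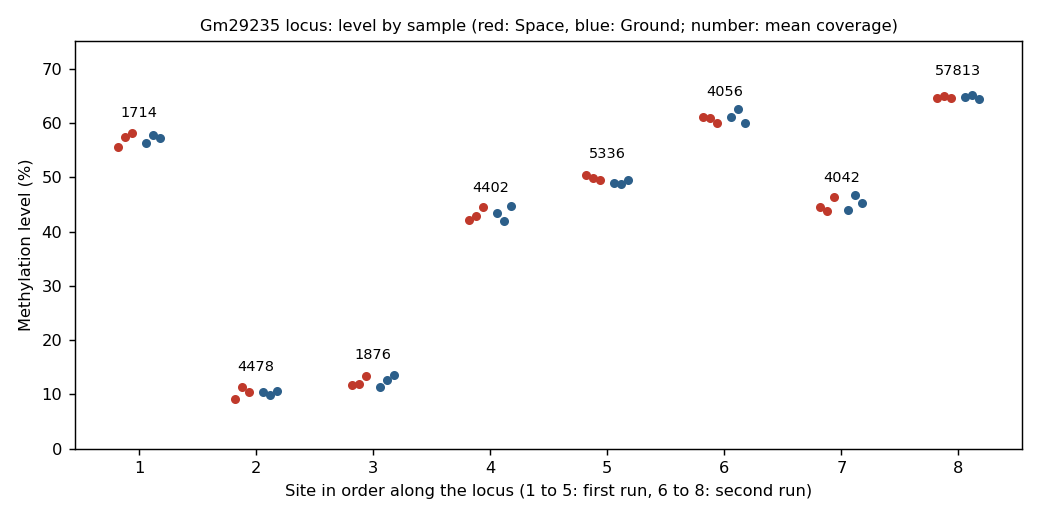
Methylation level (%) of the 8 Gm29235 members in order along the locus, in 3 Space (red) and 3 Ground (blue) samples, with the mean coverage in reads above each. Sites 2 and 3 lie near 10% and the others between 41.8% and 65.2%, and at each site the samples lie much closer to each other than the sites do.

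The Gm21860 sites on chromosome Y were the most methylated members. The locus mean was 91.4%, 91.5% and 91.0% in Space and 90.7%, 90.8% and 90.9% in Ground. The groups did not overlap, and the difference was 0.51 points (p = 0.1 in an exact two-sided permutation test, its lowest possible value). At 90742348 the 2 groups overlapped, and at 90742372 they did too. The Gm20546 sites were the least methylated, with 3.67%, 2.81% and 2.60% in Space and 2.78%, 2.71% and 2.64% in Ground. Space 1 stood above the other 5 samples there. Its mean was under 5%, so it was not in the locus test.

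At Cdk8, the level was 6.83%, 6.26% and 6.11% in Space and 6.02%, 5.86% and 5.57% in Ground. All 3 Space samples were above all 3 Ground samples, and all 7 sites had the same sign. The means were 6.40% ± 0.379 and 5.82% ± 0.227, a difference of 0.58 points (exact permutation test, two-sided, p = 0.1). In the quasi-binomial locus test, fitted over all 16455 loci, unadjusted p was 0.0171 and Benjamini-Hochberg adjusted p was 0.926. The difference fell to 0.34 points without Space 1 (unadjusted p = 0.0976 in the quasi-binomial locus test), and unadjusted p was 0.0697 without Ground 3. Cdk8 and Gm21860 were the 2 loci of 12 whose samples did not overlap. Of the 11 loci in the locus test, 2 (18.2%) had all Space samples above all Ground samples, against 6.54% of all loci tested, and 0 the reverse, against 3.5%.

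At Vmn1r261, the level was 14.4%, 12.9% and 13.1% in Space and 13.1%, 12.3% and 11.6% in Ground, and Ground 1 lay above Space 2 and Space 3. In the quasi-binomial locus test the difference was 1.10 points, unadjusted p was 0.0385 and adjusted p was 0.926. The difference was 0.63 points without Space 1 (unadjusted p = 0.186), 0.72 points without Ground 3 (unadjusted p = 0.159) and 1.504 points without Ground 1. At Sfi1, the level was 12.5%, 11.8% and 11.3% in Space and 12.4%, 10.8% and 8.72% in Ground. Ground 3 was the lowest and Ground 1 lay beside Space 1. Its difference of 1.26 points was the largest of the 12 loci, but the SD of the Ground samples was 1.85. Unadjusted p was 0.0756. Without Ground 1 the Sfi1 difference was 2.24 points and without Ground 3 it was 0.41 points, both in the quasi-binomial locus test.

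The other loci differed less between the groups. Filip1l was at 9.56%, 8.75% and 8.69% in Space and 9.47%, 7.51% and 8.71% in Ground. Taco1os was at 11.96%, 10.6% and 11.7% in Space and 12.7%, 9.86% and 11.1% in Ground. Both had their widest spread among the Ground samples. Gm11670 was at 7.31% ± 0.410 and 7.13% ± 0.362, Gm37350 at 10.3% ± 0.574 and 10.1% ± 0.789, and Gm13380 at 8.64% ± 0.366 and 8.99% ± 0.525, in Space and Ground respectively. Gm13380 and Gm29235 were the only loci of the 12 with a lower mean in Space. Space 1 was the highest sample at 6 of the 12 loci and Ground 3 the lowest at 4.

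**Figure D4:**
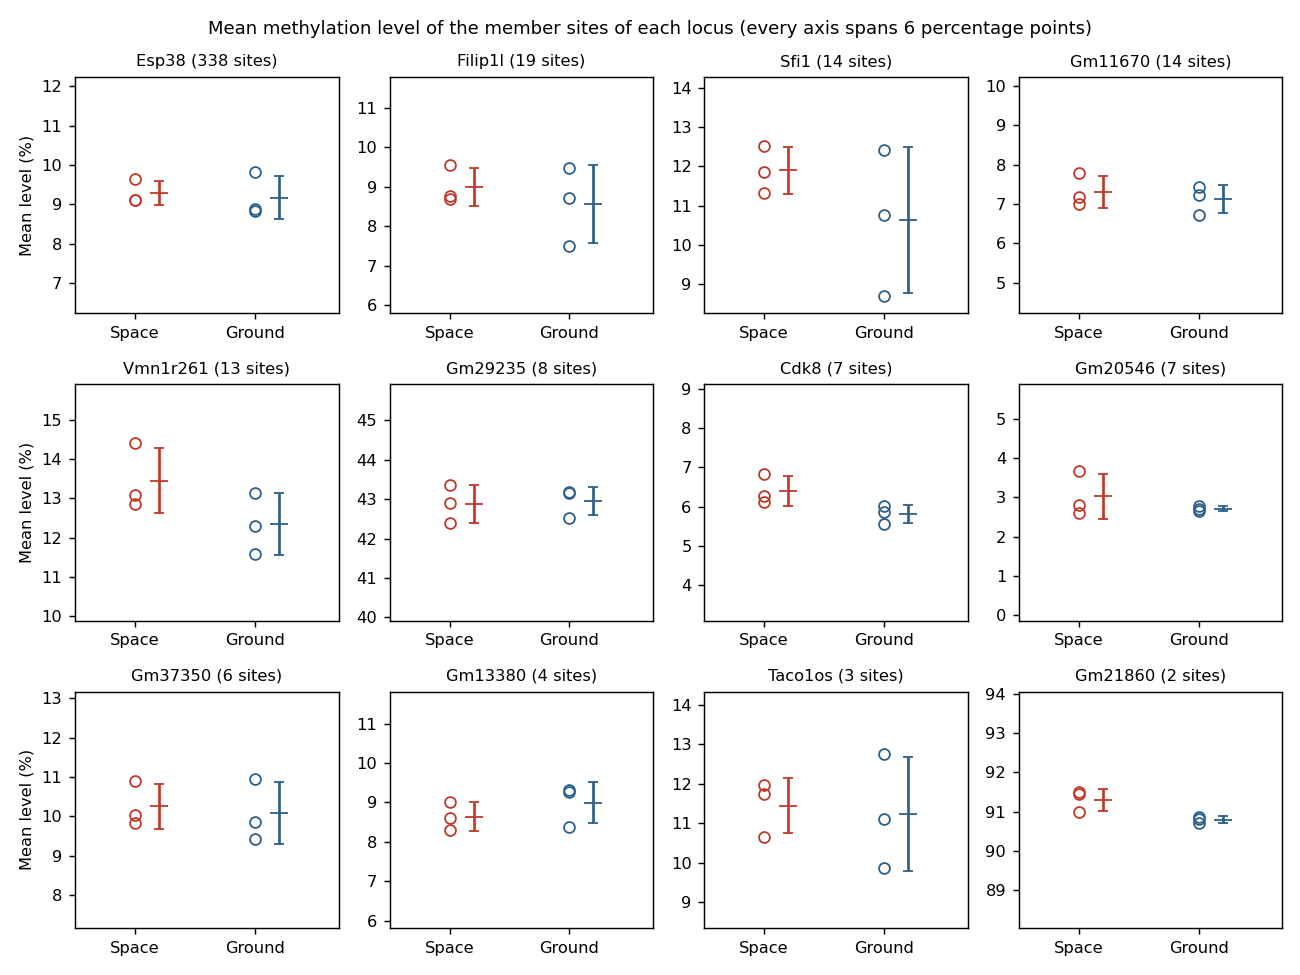
Mean methylation level (%) of the member sites of each of the 12 loci. Circles are samples (red, Space; blue, Ground), bars are mean ± SD of 3, and every axis spans 6 percentage points. The groups are apart at Cdk8 and Gm21860 and overlap at the other 10 loci.

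No member differed between Space and Ground GS cells at an adjusted p under 0.05. The quasi-binomial test compares methylated and total reads with a dispersion between replicates that is shared over sites by limma. It was fitted on 92042 sites, namely those whose mean level lay from 5% to 95%, and 412 of them were members. It called 0 members, against 0% of all sites (smallest adjusted p = 0.893, also for members). Unadjusted p was under 0.05 at 44 members (10.7%), against 4.75% of all sites tested. These were 39 with a higher level in Space (9.47%, against 2.76%) and 5 with a lower one (1.21%, against 1.99%). Of the 44, 33 were in the rDNA stretch and 7 in the Sfi1 run. Neighbouring sites there share reads, so the 44 are not independent of each other. The locus test called 0 of 11 (0% of all), and 2 had unadjusted p under 0.05 (5.2% of all). The region test, on sites at most 100 bp apart, called 0 of 12 (0% of all), and 1 had unadjusted p under 0.05 (4.76% of all).

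The size of these differences was small. Space minus Ground was above 0 at 251 of the 412 tested members (60.9%), against 52.1% of all tested sites. The median absolute difference over tested members was 0.522 percentage points, and the largest was 3.13 points. It was at 40154829 in the rDNA stretch, with 11.9%, 12.9% and 9.50% in Space and 13.4%, 14.1% and 16.1% in Ground. The groups did not overlap there, and Ground was higher (unadjusted p of the quasi-binomial test with limma = 0.0023). The smallest p was at 3143385 in Sfi1, with 10.2%, 7.84% and 9.87% in Space and 9.60%, 5.67% and 5.88% in Ground. Ground 1 lay among the Space samples there. Over tested members, 29 had all Space samples above all Ground samples (7.04%, against 4.94% of all tested sites) and 15 the reverse (3.64%, against 4.13%).

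The count of low p-values among members differed between treatments of the spread between replicates. The median replicate SD over tested members was 0.745 points, and the median SD that binomial counting gives was 0.622 points. The Pearson chi-square per degree of freedom within groups, which is 1 where replicates differ by counting error alone, had a median of 1.73 over tested members and 1.17 over the other tested sites. It exceeded 2 at 43.4% of members and 19.5% of the others. Its highest value, 16.9, was at 40156153 in the rDNA stretch. There the level was 6.56%, 5.09% and 5.46% in Space and 6.82%, 3.91% and 4.69% in Ground, and replicate 1 was the highest in both groups.

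The shared dispersion was 1.35, and so was below that of many members. When the dispersion could change with depth, 21 members (5.1%) had unadjusted p under 0.05, against 4.32% of all sites. When each site had its own dispersion, at least 1, there were 3 (0.728%), against 0.746%. These 3 were in the rDNA stretch and in Vmn1r261. Both alternatives were chosen after the data were seen. Without Ground 1, the test with the shared dispersion called 3 sites, all of them members (40154750 and 40156143 in the rDNA stretch and 3143385 in Sfi1, adjusted p = 0.014 each), higher in Space by 3.95, 1.63 and 3.52 points. It called none without any other sample. In the locus test, a dispersion that could change with depth gave unadjusted p of 0.0546 at Cdk8, 0.0600 at Vmn1r261 and 0.0497 at Sfi1. At Cdk8 and Vmn1r261 it was 0.0794 and 0.172 with the locus's own dispersion. With edgeR it was 0.0556 and 0.112, and with limma on log2 ratios 0.399 and 0.407. With the shared dispersion and a minimum of 20 reads, it stayed under 0.05 at both loci (0.0096 and 0.0236).

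**Figure D5:**
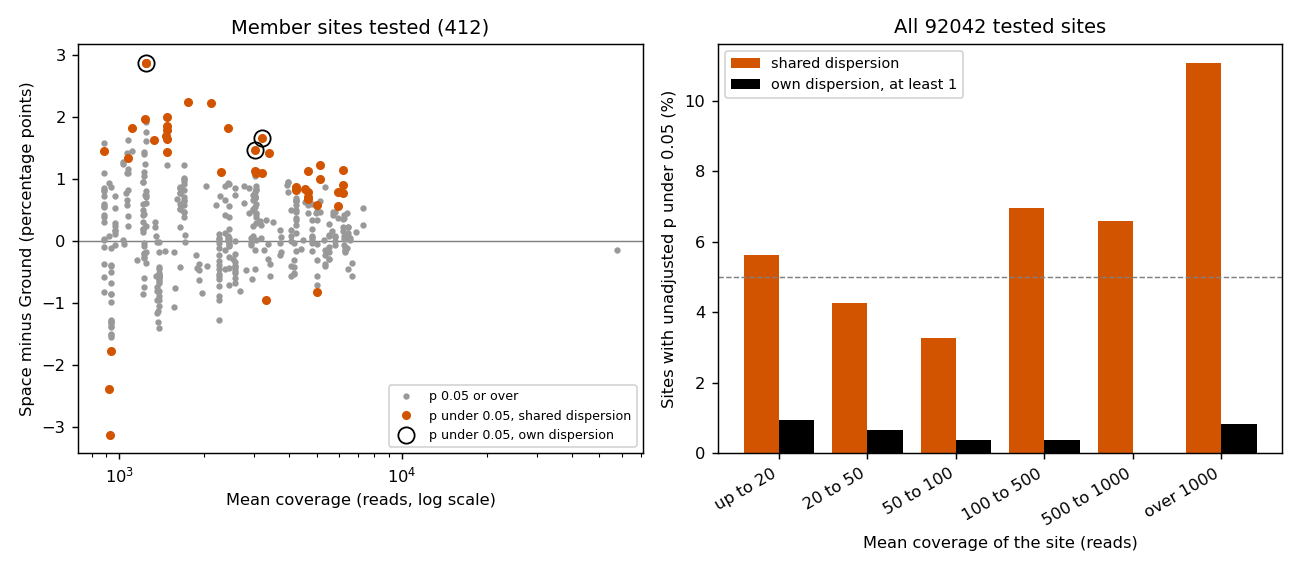
Left, Space minus Ground (percentage points) by mean coverage (reads, log scale) for the 412 tested members; orange points have unadjusted p under 0.05 with the shared dispersion and rings with their own dispersion. Right, share of all 92042 tested sites with unadjusted p under 0.05 by class of mean coverage, with a dashed line at 5%. The share is 11.05% in the class over 1000 reads with the shared dispersion and 0.829% with the site's own.

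Over all members together, the mean level was 10.3% ± 0.336 in Space and 10.1% ± 0.537 in Ground (SD, n = 3), a difference of 0.20 points (exact permutation test, two-sided, p = 0.6). From all reads pooled, which gives the deepest sites the most weight, it was 12.5% ± 0.210 and 12.4% ± 0.345 (p = 0.7 in the same exact test). The spread between samples was larger than both differences.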

How the data were processed

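RRBS libraries of 3 Space and 3 Ground GS cell samples were made with the Zymo-Seq RRBS Library Kit, per the labels. The submitters' processing notes name Trim Galore, Bismark 0.24.2, methylKit and build mm39. The deposited table gives, for each CpG site, the read count (coverage) and the percent methylated in each sample, as made by the authors, with the closest transcription start site. Methylated reads were recovered from both columns and lay within 0.000266 of a whole read. The median commonly covered site had 27 to 32 reads in a sample.

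Sites covered by 10 reads or more in each of the 6 samples, with mean levels from 5% to 95%, were tested on methylated and total reads by a quasi-binomial score test (R 4.3.3, limma 3.58.1 for the moderated dispersion, Benjamini-Hochberg adjustment), as single sites, as sums per locus and as sums per region (3 or more sites, gaps up to 100 bp). Single values were tested by exact permutation over samples, two-sided. Alternatives were coverage minimums of 5 and 20 reads, edgeR 4.0.16, limma on log2 ratios with 2 reads added, Fisher's exact test, another threshold of depth (500 or 2000 reads), a replicate block, other dispersions and leaving out each sample. The procedures were tested on simulated data. A limit on false calls of the test with the shared dispersion was checked only at the lower replicate spread simulated for deep sites. Alignments were made with BLAST+ 2.17.0 against GRCm38.p6. The figures were drawn with matplotlib 3.10.9.

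The members and lists were chosen with earlier results of these data known. Named were the 10 loci with the most sites or reads, the loci with the largest differences, ranges and smallest p, the 5 sites with the smallest p, 3 sites on both sides of the threshold, Sfi1 and Esp38. Samples that share a replicate number were not taken as pairs, since the labels do not say what a replicate number shares between the groups. The correlation of their deviations over members was 0.124, 0.21 and 0.0877, with a mean of 0.141. For Space and Ground samples with different numbers the mean was -0.0702. A pairing was thus not excluded, and results with a replicate block are given below.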

Additional observations from a re-analysis of the deposited data

How the results depend on the processing

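No setting turned the sign of the mean level of members, 0.204 points higher in Space, but it was 0.0102 without Space 1, 0.0678 without Ground 2, 0.0305 without Ground 3, 0.513 without Ground 1 and 0.514 without the Esp38 locus. The pooled level, 0.0859 points higher in Space, turned to -0.299 points without the Esp38 locus, to -0.0339 without Space 1 and to -0.0570 without Ground 3, and leaving out 1 sample gave -0.0570 to 0.278. Members against other sites stayed between -9.89 and -9.80 points when 1 sample was left out, at an exact sign-flip p of 0.0625, the smallest that 5 samples allow. The difference depended more on the choice of members. It was -6.50 points without the Esp38 locus, -6.56 with a threshold of 500 reads and -9.94 with a threshold of 2000 reads. Leaving out 1 sample gave 0 to 3 calls in the site test over all sites and over members, the 3 being without Ground 1. At single loci, none of which was called, the sign turned without 1 sample: Gm37350 (-0.130 without Space 1, -0.0850 without Ground 1), Taco1os (-0.0450 without Space 1, -0.473 without Ground 2), Gm11670 (-0.119 and -0.0811 likewise), Gm29235 (0.0297 without Ground 2) and Filip1l (-0.0910 without Ground 2). Their ranges over the left-out samples were -0.130 to 0.638 points, -0.473 to 0.968, -0.119 to 0.269, -0.227 to 0.0297 and -0.0910 to 0.891 in that order. The count of members with unadjusted p under 0.05, 44, was 78 at any level between 0% and 100% (17.9%, against 5.01% of all sites), 21 with edgeR (5.1%, against 4.09%), 0 with limma (0%, against 4.66%), 71 with Fisher's exact test (17.2%, against 7%), 27 without Space 1 (6.55%, against 4.35%), 81 without Ground 1 (19.7%, against 4.85%), 26 without Ground 2 (6.31%, against 4.64%) and 29 without Ground 3 (7.04%, against 4.59%). For loci the count, 2, was 5 without Ground 1 (45.5%, against 8.12% of all loci), 1 without Ground 2 (9.09%, against 4.71%) and 0 without Space 1 (against 4.44%) or Ground 3 (against 4.36%). It was 0 with edgeR (against 4.94% of all loci), limma (against 5.38%) and each locus's own dispersion (against 2.92%). With a dispersion that could change with depth it was 1 (9.09%, against 5.27%). At minimums of 5 and 20 reads it was 1 (9.09%, against 5.32%) and 3 (27.3%, against 4.96%). With members over 1000 reads in all 6 samples it was 3 of 9 (33.3%, against 5.2%). For regions the count, 1, was 7 without Ground 1 (58.3%, against 5.71% of all regions), 2 without Space 2 (16.7%, against 4.81%) and 0 without Space 1 (against 4.48%) or Ground 3 (against 4.66%). It was 0 with edgeR (against 4.4%), limma (against 4.76%) and each region's own dispersion (against 1.86%). With a dispersion that could change with depth it was also 0 (against 4.78%). At a minimum of 20 reads it was 2 (16.7%, against 4.07%). The cause was not tested. With the replicate block (the numbers were not shown to pair the samples), the site test gave 0 calls. In it, 44 members had unadjusted p under 0.05 (10.7%, against 6.1% of all sites). The locus and region tests gave 0 calls each. Unadjusted p was under 0.05 at 4 of 11 member loci (36.4%, against 5.85% of all loci). It was under 0.05 at 4 of 12 member regions (33.3%, against 5.22% of all regions). The 4 loci were Esp38, Vmn1r261, Sfi1 and Cdk8, with unadjusted p of 0.0305, 0.0065, 0.0108 and 0.0085 in the blocked quasi-binomial locus test. The difference of mean levels under the replicate block was 0.204 points (exact sign-flip p = 0.5). With 3 samples a group, differences well under 1 point could be seen only where the samples spread less than that.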
